A study of Mus musculus with 12 samples.

Results

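The insulin-like growth factor (Igf) system was followed through 10 genes: the ligand genes Igf1 and Igf2, the receptor genes Igf1r and Igf2r, and the binding-protein genes Igfbp2 to Igfbp7. They were chosen by name from the 2 complete gene tables of a polysome study of C2C12, a mouse myoblast cell line whose cells fuse into myotubes when growth factors are withdrawn. Of them 9 were among the 13331 genes of the wild-type table and 8 among the 13027 genes of the knockout table, so 8 could be compared between genotypes. Igf1 has no value in either table used here, and Igfbp3 has values for the wild type only; a listed gene reached at least 1.004 in some library, so no level is given for either where it has no row. The groups were Ddx27-/- polysomal RNA (3 libraries), Ddx27-/- total RNA (2 libraries), wild-type polysomal RNA (3 libraries) and wild-type total RNA (3 libraries). Ddx27 encodes a nucleolar RNA helicase known for ribosomal RNA processing. All cells were C2C12 myoblasts. The labels name no drug, and they do not say whether the knockout was a single clone or whether a group's libraries stem from different cultures, so p-values measure only the spread between these libraries. The design set polysomal RNA, taken from purified polysomes and so meant to hold mRNAs that carry several ribosomes, against the total RNA of the same genotype.

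Igf1 and Igf2 are secreted peptides that act on the receptor tyrosine kinase encoded by Igf1r and, through adaptors such as Irs1, on PI3K, Akt and mTOR. The product of Igf2r takes up Igf2 and carries it to lysosomes, and the secreted binding proteins hold the ligands outside the cell and set how much reaches the receptor. In muscle the system is known for roles in myoblast proliferation, differentiation and fibre growth. Igf2 and Igfbp5 are known to increase when C2C12 cells differentiate.

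The libraries held 13683674 to 27347878 reads in listed genes, and 3 reads corresponded to 0.0989 to 0.257 normalised read counts. These floors cover counting error only. Ddx27 was lower in the knockout, at 41.6 and 47.2 in knockout total RNA against 135 to 144 in wild-type total RNA on a scale common to both genotypes (log2 fold change -1.63 ± 0.24 SE, adjusted p = 0.00186). Gene models rich in ribosomal RNA sequence took 23.1%, 32.7% and 0.385% of the knockout polysomal libraries 1 to 3 and 5.91%, 14.5% and 0.674% of the wild-type polysomal libraries, against at most 0.135% of any total RNA library. The knockout cells also differed in myoblast markers: in values scaled per genotype table, Myod1, the myogenic transcription factor, read 0.363 and 1.13 in knockout total RNA against 137 to 177 in wild-type total RNA, and Pax7 had no row in the knockout table, while Myf5 read 107 and 123 in knockout total RNA against 58.0 to 70.5 in wild-type total RNA. Among markers of other cell types, Adipoq, Fabp4 and Plin1 (adipocytes), Ptprc, Itgam and Adgre1 (leukocytes) and Sp7, Alpl and Bglap (osteoblasts) had no row in either table. The remaining marker of each of these lists was present in all groups, with Pparg between 18.4 and 29.7, Cd68 between 0.913 and 4.94 and Runx2 between 41.2 and 110.2.

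Binding proteins made up nearly all of the family's transcripts. Levels between genes are given per kilobase of gene length, as the group mean of normalised read counts per kilobase, and each genotype's values were scaled in its own table. In knockout total RNA Igfbp6 (554 ± 139), Igfbp2 (468 ± 177) and Igfbp7 (461 ± 155) led and overlapped between libraries, followed by Igfbp5 at 81.2 ± 31.8 (SD, n = 2). In wild-type total RNA Igfbp2 led at 854 ± 30.3, above Igfbp6 at 325 ± 22.4, with Igfbp5 at 191 ± 37.2 and Igfbp7 at 153 ± 24.1 overlapping (SD, n = 3). The receptors stood far lower, with Igf2r at 5.32 ± 2.19 and Igf1r at 3.31 ± 1.43 in knockout total RNA, and Igf2r at 6.94 ± 0.077 and Igf1r at 8.83 ± 0.13 in wild-type total RNA. The order of the receptors was separate in the wild type, while in the knockout they overlapped. Igfbp4 was at 2.41 ± 1.10 per kilobase in knockout total RNA and 1.67 ± 0.15 in wild-type total RNA. Igf2 had the lowest mean in every group, at 0.14 ± 0.047 per kilobase in knockout total RNA and 0.64 ± 0.21 in wild-type total RNA.

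**Figure D1:**
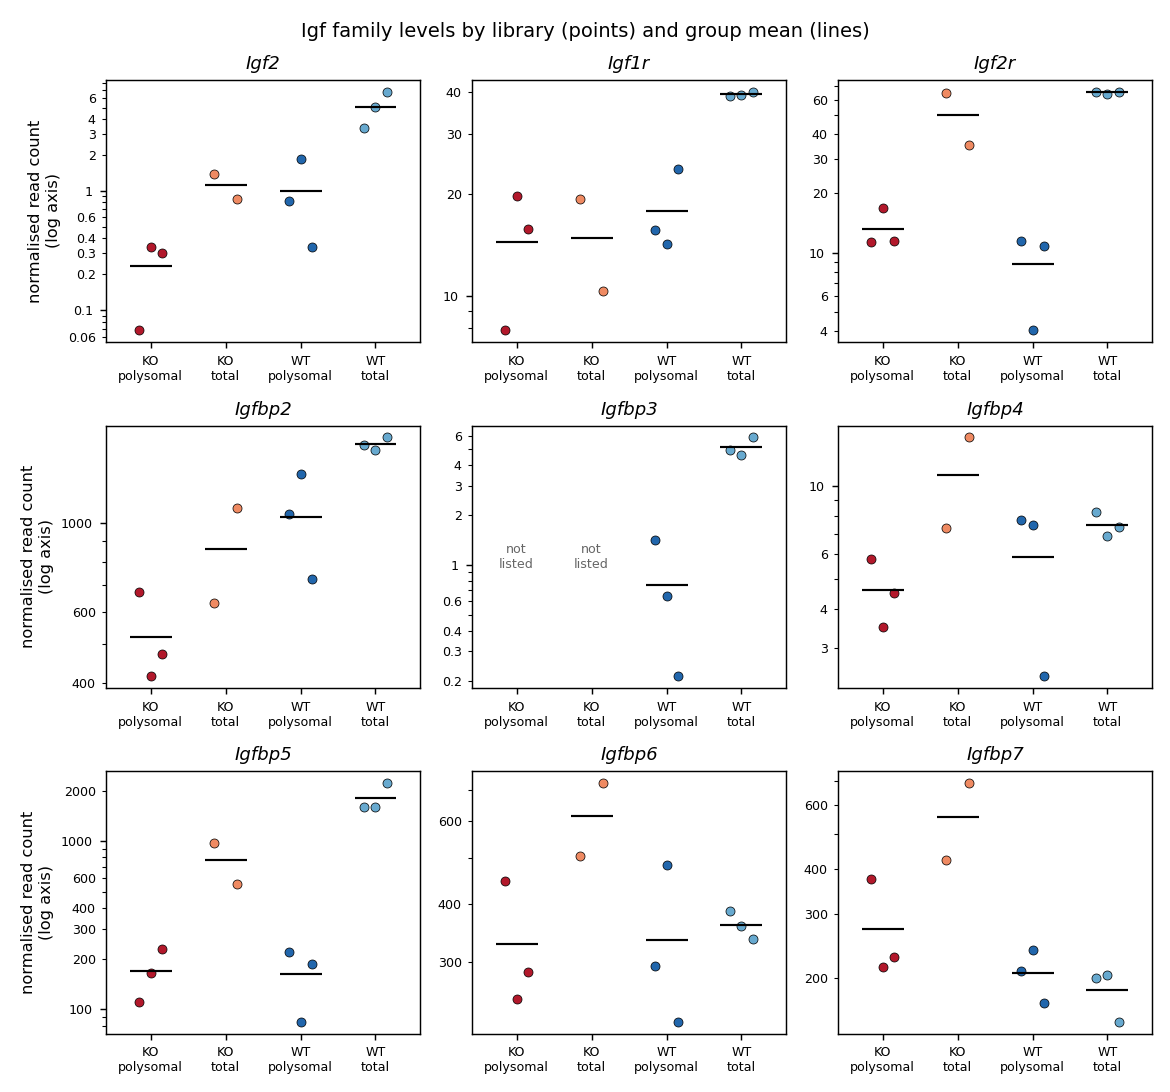
Normalised read count (log axis, each panel with its own range) of the 9 listed Igf family genes in knockout (KO) polysomal, KO total, wild-type (WT) polysomal and WT total RNA. Points are libraries and lines are group means; Igfbp5 and Igf2r sit lower in the polysomal than in the total RNA libraries of both genotypes, and the values of each genotype were scaled in its own table.

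Of the ligands, Igf2 was low, and lower in polysomal than in total RNA of the wild type. In the knockout Igf2 rested on 1, 4 and 7 reads in polysomal libraries 1 to 3 (0.068, 0.342 and 0.301 normalised read counts), against 42 and 21 reads in total RNA libraries 1 and 2 (1.38 and 0.850). Wild-type polysomal libraries gave 0.830, 1.85 and 0.341, against 3.38, 5.08 and 6.79 in wild-type total RNA. In both genotypes every polysomal library lay below every total RNA library, and the value of knockout polysomal library 1 lies under its floor of 3 reads. The wild-type fold change was -1.63 ± 0.34 on the log2(value + 1) scale (adjusted p = 0.0163), and it missed the threshold without wild-type polysomal library 1 (adjusted p = 0.0538), without total RNA library 2 or 3 (0.0758 and 0.0878), and with the trend on gene length removed (-1.25, 0.0658). In the knockout Igf2 did not pass the filter of a value of 1 in 3 libraries. The authors' deposited table lists it at a log2 fold change of -2.21 (FDR 0.0433) in the knockout and -2.39 (FDR 0.000493) in the wild type.

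Igf2r passed the test for lower levels in polysomal RNA of both genotypes, and Igf1r passed it in the wild type. Igf2r read 11.3, 16.9 and 11.5 in knockout polysomal RNA, against 64.5 and 35.4 in knockout total RNA. It read 11.5, 4.03 and 10.8 in wild-type polysomal RNA, against 65.8, 64.4 and 65.3 in wild-type total RNA. The fractions did not overlap in either genotype, and the lowest wild-type value came from polysomal library 2, the one with 14.5% of rRNA-like reads. The log2 fold change of Igf2r was -1.80 ± 0.32 in the knockout (adjusted p = 0.029) and -2.87 ± 0.35 in the wild type (adjusted p = 0.00315), at rank 60 from the lowest of 12070 genes in the knockout and rank 42 of 12380 in the wild type. Igf1r, the receptor that signals, read 7.90, 19.7 and 15.8 in knockout polysomal RNA, against 19.3 and 10.3 in knockout total RNA. In the wild type it read 15.6, 14.2 and 23.7 in polysomal RNA, against 38.9, 39.3 and 40.1 in total RNA. Its knockout fractions overlapped fully (-0.06 ± 0.41, adjusted p = 0.95), while its wild-type polysomal libraries all lay below the total RNA libraries (-1.14 ± 0.22, adjusted p = 0.0138). Without any one of the 3 wild-type total RNA libraries the Igf1r call was lost (adjusted p between 0.0747 and 0.0778, at fold changes between -1.14 and -1.12).

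Among the binding proteins Igfbp5, a matrix-binding member known in differentiating muscle, was the most reduced in polysomal RNA. It read 111, 165 and 229.8 in knockout polysomal RNA, against 981 and 555 in knockout total RNA. It read 219, 84.3 and 186 in wild-type polysomal RNA, against 1596, 1605 and 2211 in wild-type total RNA. The highest polysomal library stayed below the lowest total RNA library in both genotypes. Igfbp5 was at -2.18 ± 0.36 in the knockout (adjusted p = 0.0244), at rank 28 from the lowest of 12070 genes, and at -3.55 ± 0.36 in the wild type (adjusted p = 0.00185), at rank 8 from the lowest of 12380 genes. The authors' deposited table gives Igfbp5 a log2 fold change of -2.19 (FDR 2.19e-06) in the knockout and -3.47 (FDR 1.85e-16) in the wild type. Igfbp3, the main carrier of ligands in serum, was low: 1.41, 0.645 and 0.213 in wild-type polysomal RNA, against 4.91, 4.57 and 5.85 in wild-type total RNA, with no overlap (-1.85 ± 0.28, adjusted p = 0.00623; 0.0502 without total RNA library 3).

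The 3 most abundant short transcripts of the family, Igfbp2, Igfbp6 and Igfbp7, did not pass the test in either genotype. Igfbp2 read 673, 416 and 470.4 in knockout polysomal RNA, against 631 and 1092 in knockout total RNA, which overlap (-0.71 ± 0.33, adjusted p = 0.25). In the wild type it read 1052, 1325 and 726 in polysomal RNA, against 1562, 1523 and 1633 in total RNA, which do not overlap (-0.65 ± 0.24, adjusted p = 0.0935). Igfbp6, which favours Igf2 as its ligand, read 447, 249.6 and 285 in knockout polysomal RNA and 505 and 723 in knockout total RNA (-0.93 ± 0.32, adjusted p = 0.14). Its wild-type polysomal libraries read 295, 483 and 223, against 385, 359 and 335 in wild-type total RNA (-0.18 ± 0.28, adjusted p = 0.655). For both Igfbp2 and Igfbp6 the sign was negative in each genotype, short of the threshold. Igfbp7, which binds Igf ligands weakly, read 375, 214 and 229 in knockout polysomal RNA, against 424 and 689 in knockout total RNA (-1.03 ± 0.33, adjusted p = 0.125). In the wild type Igfbp7 read 209, 239 and 171 in polysomal RNA, against 199.8, 204 and 152 in total RNA (0.15 ± 0.20, adjusted p = 0.593). For Igfbp6 and Igfbp7 the knockout polysomal libraries all lay below the knockout total RNA libraries, and the wild-type fractions overlapped. Igfbp4 read 5.79, 3.51 and 4.52 in knockout polysomal RNA, against 7.32 and 14.3 in knockout total RNA (-1.03 ± 0.34, adjusted p = 0.129). In the wild type Igfbp4 read 7.76, 7.49 and 2.43 in polysomal RNA, against 8.24, 6.89 and 7.35 in total RNA, which overlap, polysomal library 3 being the lowest (-0.42 ± 0.37, adjusted p = 0.427).

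By count, 2 of 7 members tested were lower and 0 higher in knockout polysomal RNA (Igfbp5 and Igf2r), where 1.85% of all genes were called lower and 0.911% higher (2.76% in all). In polysomal RNA of the wild type 5 of 9 members were lower and 0 higher, where 13.8% of all genes were called lower and 8.89% higher (22.7% in all). The median log2 fold change of the members tested was -1.03 in the knockout, against 0.04 over all genes, and -1.14 in the wild type, against -0.02 over all genes. No member was called higher by edgeR's quasi-likelihood test or by DESeq2, and none was higher at an unadjusted p under 0.05 by limma, in either genotype. Both knockout calls were lost without knockout polysomal library 3, where 0.168% of all genes were called lower. Igfbp5 was then at -2.44 and Igf2r at -1.72. Both calls were also lost without knockout total RNA library 1 or 2, fits that leave 1 library in that group. Igfbp5 was at -1.77 without library 1 and -2.59 without library 2, and Igf2r at -1.38 and -2.23. Without polysomal library 1, 5 members were lower, where 6.41% of all genes were called lower. The knockout count, like that over all genes, thus depends on single libraries. In the wild type 3 members were lower without total RNA library 2, and 2 without library 3, where 3.6% and 3.11% of all genes were called lower. Some marker lists moved with the fraction too. The 1 gene tested of each of the adipocyte, osteoblast and leukocyte lists was not called in either genotype. Of the differentiated muscle list, 4 of 5 tested were lower in knockout polysomal RNA (8 listed, summing to 13.7 to 20.7, against 162 and 193 in knockout total RNA) and 8 of 8 in wild-type polysomal RNA (18.1 to 30.4, against 322 to 814 in wild-type total RNA). Of the myoblast list 2 of 4 tested were lower in knockout polysomal RNA (461 to 539, against 1032 and 1205 in knockout total RNA) and 4 of 6 in wild-type polysomal RNA (888 to 1042, against 2921 to 4021 in wild-type total RNA). Of the fibroblast list 1 of 3 tested was lower in knockout polysomal RNA (269 to 274, against 330.4 and 489 in knockout total RNA) and 3 of 4 in wild-type polysomal RNA (543 to 769, against 758 to 815 in wild-type total RNA). The wild-type sums of the fibroblast list overlapped between fractions. Of 3 nuclear RNAs (Malat1, Neat1 and Xist) 1 was lower in knockout polysomal RNA and 2 in wild-type polysomal RNA. Malat1 was at -0.04 ± 0.83 in the knockout (adjusted p = 0.981) and 0.07 ± 0.38 in the wild type (0.904). It read 77.9 to 917 in knockout and 100 to 281 in wild-type polysomal RNA. Xist was lower in both, at -2.22 ± 0.41 in the knockout (adjusted p = 0.0316) and -2.68 ± 0.47 in the wild type (0.00919). Neat1 was at -1.47 ± 0.53 in the knockout (adjusted p = 0.15) and -1.31 ± 0.39 in the wild type (0.049). Whether nuclear RNA entered the polysomal libraries was not tested. The part of these lists in the members' values was not tested.

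**Figure D2:**
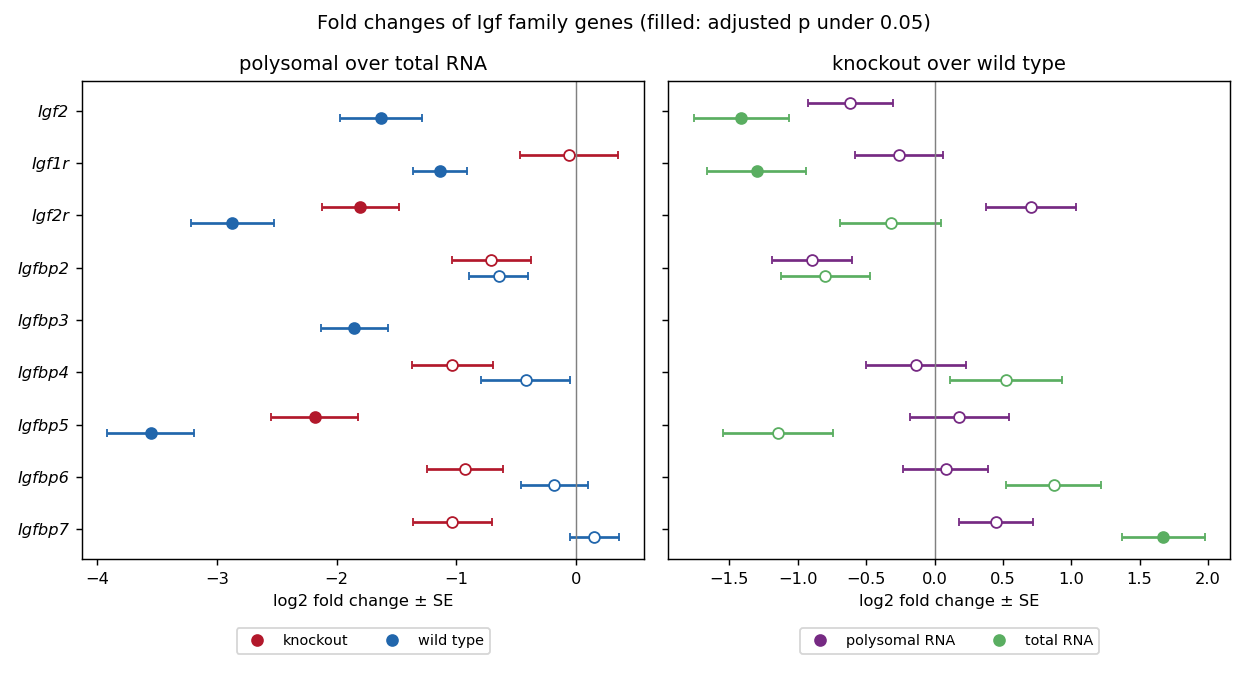
Log2 fold change ± SE of each Igf family gene, for polysomal over total RNA in the knockout and the wild type (left) and for knockout over wild type in polysomal and total RNA (right); filled symbols have an adjusted p under 0.05. Igfbp5 and Igf2r are filled in both genotypes on the left, and Igfbp7 is filled to the right of 0 for total RNA on the right.

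The pair of members called lower in both genotypes are also the longest. Igf2, next in length, was called in the wild type and not tested in the knockout. Igfbp5 (9460 bases), Igf2r (9388 bases) and Igf2 (7999 bases) lead in length, and Igfbp6 (1108 bases), Igfbp7 (1207 bases) and Igfbp2 (1842 bases) are the shortest. Igfbp3, with the third-largest fall in the wild type, has 3125 bases, fewer than Igf1r (4468) and Igfbp4 (4493). The log2 level changed per doubling of gene length by -0.16, 0.17 and 0.11 in knockout polysomal libraries 1 to 3, by 0.12 and -0.12 in knockout total RNA, and by -0.23, -0.53 and -0.14 in wild-type polysomal libraries. With that trend removed from each library, Igfbp5 was at -2.24 (adjusted p = 0.000987) in the knockout and -3.10 (0.00111) in the wild type. Igf2r was then at -1.86 (adjusted p = 0.00202) in the knockout and -2.42 (0.00139) in the wild type. Igfbp6 and Igfbp7 then passed in the knockout (-0.86, adjusted p = 0.0266, and -0.97, adjusted p = 0.0209), and Igfbp2 and Igfbp6 in the wild type (-0.91, adjusted p = 0.0161, and -0.66, adjusted p = 0.0318), so 4 members were lower in the knockout and 6 in the wild type. All genes called lower then made up 6.61% in the knockout, against 1.85% before, and 13.3% in the wild type.

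**Figure D3:**
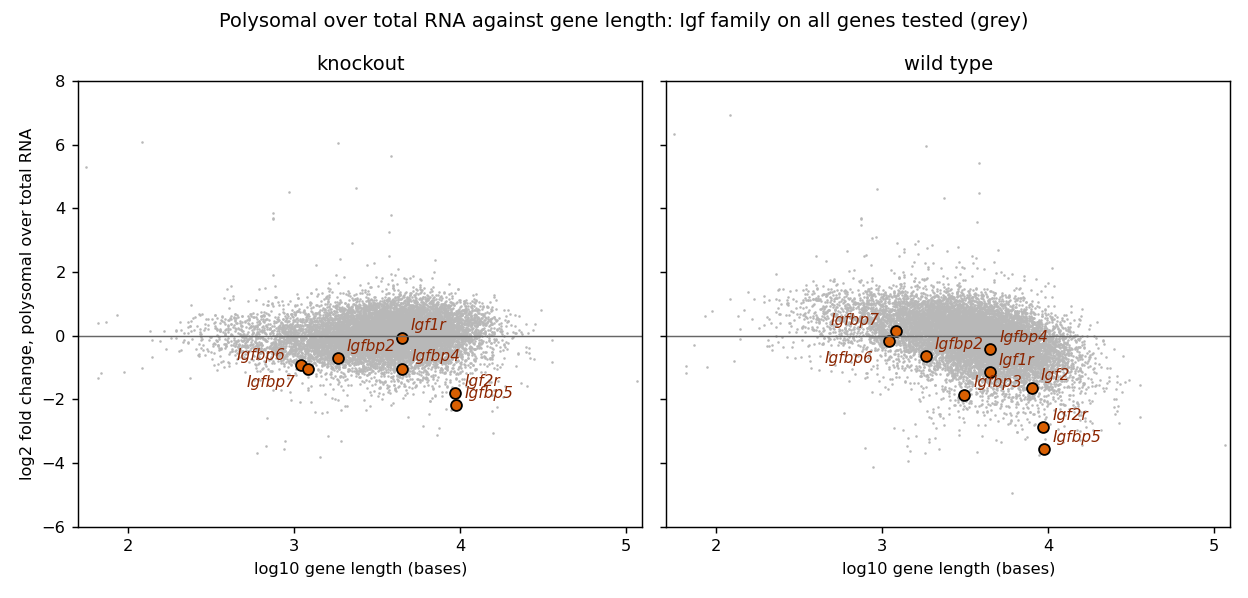
Polysomal over total RNA as a log2 fold change (vertical axis) against log10 gene length in bases (horizontal axis) for all genes tested (grey points) and the Igf family (orange) in the knockout (left) and the wild type (right). Igfbp5 and Igf2r lie below most grey points of similar length in both panels.

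Shown are the promoters of Igfbp5 and Igf2r, called lower in polysomal RNA of both genotypes, and of Igfbp7, called higher in knockout total RNA. Each is given as the 250 bases before the RefSeq gene start (build GRCm38.p6, minus strand for all 3). They lie at chr1:72874866-72875115 for Igfbp5, chr17:12769707-12769956 for Igf2r and chr5:77408046-77408295 for Igfbp7. Capitals mark the GC box GGGCGG on either strand.
Igfbp5: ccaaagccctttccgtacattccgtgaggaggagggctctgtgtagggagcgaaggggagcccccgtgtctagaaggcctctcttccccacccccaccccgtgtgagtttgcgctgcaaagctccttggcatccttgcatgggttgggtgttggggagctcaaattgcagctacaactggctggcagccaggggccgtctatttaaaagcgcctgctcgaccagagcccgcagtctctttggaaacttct
Igf2r: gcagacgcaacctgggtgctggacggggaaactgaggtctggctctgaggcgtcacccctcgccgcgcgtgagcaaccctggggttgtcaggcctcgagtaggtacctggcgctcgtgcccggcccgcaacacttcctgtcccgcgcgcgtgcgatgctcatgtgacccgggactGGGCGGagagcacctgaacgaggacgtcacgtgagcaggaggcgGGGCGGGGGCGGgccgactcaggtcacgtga
Igfbp7: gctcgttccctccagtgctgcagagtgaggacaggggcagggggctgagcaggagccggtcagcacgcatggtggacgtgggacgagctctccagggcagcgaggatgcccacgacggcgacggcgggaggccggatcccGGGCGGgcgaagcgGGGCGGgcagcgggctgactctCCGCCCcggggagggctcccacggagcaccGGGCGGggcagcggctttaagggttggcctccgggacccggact
On both strands, the windows were searched for GGGCGG (in 32.74% of 32851 such windows of all genes), CAGCTG (13%), CCAAT (33.85%) and TATAAA (12.37%). Igf2r holds 3 GC boxes, a pair of them side by side, and Igfbp7 holds 4. Igfbp5 holds none of the 4 motifs in this window. Over 14 windows of the 10 members, 6 hold a GC box and 1, that of Igf1, holds CAGCTG. Igfbp5 and Igfbp2 are neighbours on chromosome 1, on opposite strands, with 5590 bases between them.

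Between genotypes, total RNA of the knockout held more Igfbp7 and less Igf2 and Igf1r. Values here are on the scale common to all 11 libraries. Igfbp7 read 445 and 723 in knockout total RNA, against 192, 196 and 147 in wild-type total RNA, and rose by 1.68 ± 0.30 (adjusted p = 0.00621), at rank 120 from the highest of 12460 genes. Igf2 read 1.45 and 0.891 in knockout total RNA, against 3.25, 4.88 and 6.58 in wild-type total RNA (-1.42 ± 0.35, adjusted p = 0.0266). Igf1r read 20.3 and 10.8 in knockout total RNA, against 37.4, 37.7 and 38.8 in wild-type total RNA (-1.30 ± 0.36, adjusted p = 0.0433). None of these 3 genes overlapped between genotypes. In bulk RNA, fewer cells of a type and less RNA per cell cannot be told apart.

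That is 1 of 8 members higher and 2 lower, where 4.71% of all genes were called higher and 5.79% lower (10.5% in all). The members' median was -0.56, against -0.01 over all genes. The Igfbp7 call was lost only without knockout total RNA library 2 (1.33, adjusted p = 0.117). Igf2 missed the threshold with edgeR (adjusted p = 0.0692), a pseudocount of 0.25 (0.0597) and the length trend removed (0.0943), and Igf1r with edgeR (0.0573). Each was also lost without knockout total RNA library 2 or wild-type total RNA library 2 or 3. For Igf1r, leaving out wild-type total RNA library 1, wild-type polysomal library 1 or knockout polysomal library 3 also ended the call. The remaining members did not pass: Igfbp5 at -1.15 ± 0.40 (adjusted p = 0.0876), Igfbp6 at 0.87 ± 0.35 (0.125), Igfbp2 at -0.80 ± 0.33 (0.131), Igfbp4 at 0.52 ± 0.41 (0.41) and Igf2r at -0.32 ± 0.37 (0.584). Igfbp6 lay higher, and Igfbp5 and Igfbp2 lower, in both knockout libraries than in all wild-type libraries. Under alternatives Igfbp5 passed with DESeq2 (-1.11, adjusted p = 0.0433). Igfbp2 passed by limma with quantile normalization (-1.08, adjusted p = 0.0217) and with the length trend removed (-0.998, 0.0242). Without wild-type polysomal library 2, Igfbp5 and Igfbp6 passed by limma (adjusted p = 0.0224 and 0.0305). Markers moved between the same groups: in deposited normalised read counts, the myoblast list summed to 1032 and 1205 in knockout total RNA (5 of 6 genes listed), against 2921 to 4021 in wild-type total RNA (6 of 6), the differentiated muscle list (8 of 8) to 162 and 193, against 322 to 814, and the fibroblast list to 330.4 and 489 (3 of 6), against 758 to 815 (4 of 6). Their part in the members' differences was not tested.

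In polysomal RNA 0 of 8 members differed between genotypes by limma, where 4.82% of all genes were called higher and 3.5% lower (8.32% in all). At an unadjusted p under 0.05 limma gave 0 higher and 1 lower, where 2888 of 12460 genes were under it in either direction. After adjustment edgeR called 0, and DESeq2 called 1 lower, Igfbp2, where DESeq2 called 6.6% of all genes lower. Igfbp2 read 690.2, 429 and 472 in knockout polysomal RNA, against 983, 1351 and 683 in wild-type polysomal RNA (-0.90 ± 0.29, adjusted p = 0.0847). Only knockout library 1 lay above the lowest wild-type library. With the length trend removed Igfbp2 passed (-0.83, adjusted p = 0.0309). Igf2r read 11.6, 17.4 and 11.5 in knockout polysomal RNA, against 10.7, 4.11 and 10.2 in wild-type polysomal RNA, without overlap but short of the threshold (0.70 ± 0.33, adjusted p = 0.228). Igfbp5 was at 0.18 ± 0.36 (adjusted p = 0.805), Igfbp7 at 0.45 ± 0.27 (0.357) and Igf2 at -0.62 ± 0.31 (0.264). Igf2 read 0.070, 0.353 and 0.302 in knockout polysomal RNA (1, 4 and 7 reads), against 0.776, 1.89 and 0.321 in wild-type polysomal RNA. Adding 1 understates its change, which ran from -1.97 to -0.23 under alternatives.

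The make-up of the binding-protein transcripts lay apart between genotypes; no test was run on these shares. As a share of the summed Igfbp level per kilobase, Igfbp2 took 34.5 ± 0.91% in knockout polysomal and 29.4 ± 3.02% in knockout total RNA, against 53.3 ± 1.64% in wild-type polysomal and 56.0 ± 1.01% in wild-type total RNA (SD, n = 3, 2, 3 and 3). Igfbp7 took 27.3 ± 1.21% and 29.2 ± 1.69% in the same knockout groups, against 16.6 ± 2.07% and 10.1 ± 1.73% in the wild-type groups. No knockout library overlapped a wild-type library for either share, and Igfbp2 was the leading binding protein in all 6 wild-type libraries. Igfbp6 took 35.7 ± 1.08% in knockout polysomal and 35.5 ± 1.11% in knockout total RNA, against 28.1 ± 3.37% in wild-type polysomal and 21.3 ± 1.62% in wild-type total RNA. Igfbp5 took 2.37 ± 1.17% in knockout polysomal RNA against 5.69 ± 3.63% in knockout total RNA, and 1.83 ± 1.03% in wild-type polysomal RNA against 12.5 ± 2.24% in wild-type total RNA. Shares sum to the whole, so a lower share of one member raises those of the others.

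**Figure D4:**
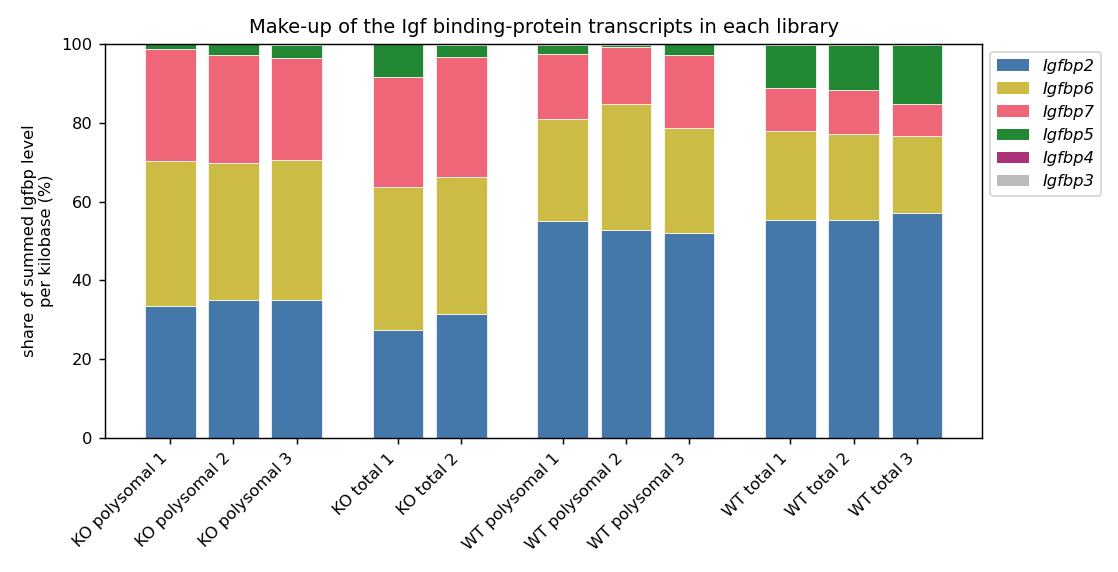
Share (%) of each binding-protein gene in the summed Igfbp level per kilobase, 1 bar per library, for knockout (KO) polysomal, KO total, wild-type (WT) polysomal and WT total RNA. Igfbp2 takes 27.3% to 35.1% of KO libraries and 52.0% to 57.1% of WT libraries, and Igfbp5 is widest in WT total RNA.

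The difference between the genotypes in polysomal over total RNA was tested directly. By limma 0 of 8 members passed, where 0.265% of all genes were called (0.224% higher and 0.0401% lower). Without adjustment, limma gave 1 member higher and 1 lower at a p under 0.05, where 2604 of 12474 genes were under it. After adjustment edgeR and DESeq2 also called 0. The knockout minus wild-type difference in log2 fold change was 1.37 ± 0.57 for Igfbp5 (adjusted p = 0.208), 1.08 ± 0.49 for Igf1r (0.24), 1.07 ± 0.52 for Igf2r (0.259) and 0.86 ± 0.46 for Igf2 (0.294). Igf2 rested on 1 to 42 reads a library in the knockout, where adding 1 understates its change. Its difference ran from 0.087 to 1.23 under alternatives. The authors' log2 fold changes for Igf2 were -2.21 in the knockout and -2.39 in the wild type. Igfbp2 was at -0.059 ± 0.42 (adjusted p = 0.944). The remaining members had negative differences, with Igfbp7 at -1.19 ± 0.40 (adjusted p = 0.15), Igfbp6 at -0.75 ± 0.45 (0.339) and Igfbp4 at -0.61 ± 0.54 (0.507). Igfbp5 passed without the polysomal libraries that held over 10% of rRNA-like reads (1.46, adjusted p = 0.0499), where 5.24% of all genes were called higher and 3.81% lower. That fit leaves 1 knockout and 2 wild-type polysomal libraries, so the lone knockout library is assumed to vary like the others. With the length trend removed it was at 0.88 (adjusted p = 0.251).

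Over 58 further genes of the pathway, 0 of 41 tested were higher and 1 lower in knockout polysomal RNA, and in wild-type polysomal RNA 3 of 45 were higher and 9 lower. These shares, 0% higher and 2.44% lower in the knockout and 6.67% higher and 20% lower in the wild type, stand beside 0.911% and 1.85% of all genes in the knockout and 8.89% and 13.8% in the wild type. With the length trend removed the wild-type counts were 4 higher (8.89%) and 5 lower (11.1%), against 9.5% and 13.3% of all genes. The knockout counts were then 3 higher (7.32%) and 1 lower (2.44%), against 5.48% and 6.61% of all genes. The 1 in the knockout was Ctsd, a lysosomal protease that can cleave binding proteins, at -1.30 ± 0.25 (adjusted p = 0.0362). In the wild type Ctsd was at -1.19 ± 0.16 (adjusted p = 0.00429), the insulin receptor gene Insr at -1.48 ± 0.41 (0.0391), the adaptor gene Irs1 at -1.38 ± 0.33 (0.0245), Mtor at -1.002 ± 0.16 (0.00666) and the Igf2 mRNA binding protein gene Igf2bp2 at -1.29 ± 0.27 (0.0166). Also lower there were Fbxo32 (-1.58 ± 0.28, adjusted p = 0.00998), Rptor (-0.86 ± 0.23, 0.034) and Igf2bp3 (-0.78 ± 0.22, 0.0439). Adam12, a protease of binding proteins, was higher in wild-type polysomal RNA (1.65 ± 0.30, adjusted p = 0.0106), as was the S6 kinase gene Rps6kb1 (0.82 ± 0.22, 0.0362). For the difference between genotypes 0 of 43 passed by limma, where 0.265% of all genes were called, and 0 passed by edgeR. At an unadjusted p under 0.05 limma gave 10 higher and 0 lower, where 2604 of 12474 genes were under it in either direction. With the length trend removed limma gave 6 higher and 4 lower at an unadjusted p under 0.05. After adjustment 1 was then higher (2.33%) and 0 lower, against 0.673% and 0.337% of all genes. DESeq2 called 3 higher (6.98%), where it called 3.92% of all genes higher and 3.7% lower. Irs1 was at 2.35 ± 0.49 (adjusted p = 0.069).

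Between genotypes, 2 of 43 pathway genes were higher and 4 lower in knockout total RNA, and 4 were higher and 2 lower in knockout polysomal RNA. These shares were 4.65% and 9.3% in total RNA, where 4.71% of all genes were higher and 5.79% lower, and 9.3% and 4.65% in polysomal RNA, where 4.82% were higher and 3.5% lower. Stc2, which encodes a stanniocalcin that inhibits the binding-protein protease Pappa, rose in both, by 1.21 ± 0.19 in total RNA (adjusted p = 0.00243) and 0.95 ± 0.17 in polysomal RNA (0.00542). Htra1, a secreted protease of binding proteins, fell in both, at -0.93 ± 0.17 in total RNA (adjusted p = 0.00664) and -1.03 ± 0.15 in polysomal RNA (0.00208). Ctsd, a protease of the same list, went the other way and rose in both. It was at 0.91 ± 0.18 in total RNA (adjusted p = 0.00991) and 0.76 ± 0.16 in polysomal RNA (0.0141). Grb14, an adaptor that restrains insulin receptor signalling, fell in both, at -1.66 ± 0.23 in total RNA (adjusted p = 0.00134) and -1.26 ± 0.21 in polysomal RNA (0.00372). Irs1 fell in total RNA (-1.48 ± 0.35, adjusted p = 0.0223), as did the PI3K gene Pik3cd (-1.002 ± 0.27, 0.0379). Fbxo32, a muscle ubiquitin ligase gene under Foxo control, rose in polysomal RNA (1.77 ± 0.28, adjusted p = 0.00271), where its total RNA value was 0.64 ± 0.31 (0.192). The PI3K gene Pik3r3 also rose in polysomal RNA (1.73 ± 0.42, adjusted p = 0.0277), with a total RNA value of 0.39 ± 0.47 (0.601).

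Igf2 lies 72621 bases from H19, the imprinted long non-coding RNA of the same domain on chromosome 7. H19 read 669.7, 225 and 242 in knockout polysomal RNA, against 481 and 442 in knockout total RNA, and 207, 449.7 and 66.4 in wild-type polysomal RNA, against 1068, 1019 and 1171 in wild-type total RNA. The knockout fractions overlapped (-0.48 ± 0.45, adjusted p = 0.564) and the wild-type fractions did not (-2.55 ± 0.60, adjusted p = 0.024), while the difference between them did not pass (2.08 ± 0.87, adjusted p = 0.211). Igf2r is overlapped by its antisense RNA Airn, which had 5 to 32 reads a library, and Igfbp7 by Polr2b on the opposite strand. The sources used here do not say whether counting used strand, so reads from such pairs cannot be told apart.

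For the 3 most abundant members per kilobase, the genes with the most similar profile were sought by the root mean squared difference of centred log2 values over 11 libraries, among 12445 genes. The nearest to Igfbp2 were Pdlim4 (0.242) and Cadm4 (0.271), against a median distance of 0.789. The nearest to Igfbp6 were Tradd (0.103), Tbcc (0.126) and Cuedc2 (0.162), against a median of 0.668. The nearest to Igfbp7 were Fgfbp1 (0.157), Pdrg1 (0.189) and Ccs (0.189), against a median of 0.787.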

How the data were processed

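Total RNA and polysomal RNA of wild-type and Ddx27-/- C2C12 myoblasts were extracted with Trizol and sequenced as Illumina libraries, per the labels' protocols. STAR, HTSeq, edgeR and build mm10 were used per the submitters' processing notes, with versions and settings not given in the sources used here. The authors deposited a signal per gene and library in 1 table per genotype, a normalised read count scaled within that table: 100% of values were whole reads times 1 factor per library, within 0.001 reads. Column totals ran from 847338 to 1215073, so these are not plain CPM, which the design had assumed; its test was kept. The authors' tables also give gene length in bases, a log2 fold change and a p-value with its FDR. Of 12 labelled samples, 11 have a column; the third knockout total RNA sample was not analysed here. Knockout columns match the labels by group only, so their library numbers are those of the columns. Group was taken from the labels. Of 13768 gene IDs, 13648 matched the gene name table; coordinates and promoters came from RefSeq (GRCm38.p6, the mm10 build).

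Genes reaching a value of 1 in at least 3 libraries of a fit entered limma 3.58.1 (R 4.3.3; linear model with mean-variance trend) on log2(value + 1), with Benjamini-Hochberg adjustment over all genes tested and a threshold of 0.05. Adding 1 understates the change of low genes. Knockout was compared with wild type on a common scale, set by median-of-ratios factors over 12355 genes, and the 4 group means shared 1 estimate of the spread. Alternatives were edgeR 4.0.16 and DESeq2 1.42.0 on the recovered reads, other scalings, filters and pseudocounts, a length correction, and leaving out each library. The steps were also run on simulated counts with known changes. Those counts had the same spread in every library and no length trend, unlike the data, so that run does not bear on these features. Replicates differed by more than counting error, with a chi-square per degree of freedom of 4.00 for wild-type total RNA libraries 1 and 2 and 21.6 to 581 for other pairs. All members are named, with pathway genes past the threshold (at most 4 a list and comparison, by size), the 3 nearest profiles, Ddx27 and H19. One of the nearest profiles is not reported here. The members, gene lists and tests were chosen with earlier results of these data known. Pathway lists covered receptor adaptors, PI3K-Akt-mTOR, binding-protein proteases, Igf2 mRNA binding proteins, and other family genes (Igfbp1, Igfbpl1, Igfals, Ins1, Ins2 and Insrr, of which 0 have a row).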

Additional observations from a re-analysis of the deposited data

How the results depend on the processing

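Of 674 values of the 40 member results under alternatives, 600 kept direction and side of the threshold, 29 lost the call, 21 gained it and 24 changed sign; 0 of those that changed sign belonged to a called result. Members lower in knockout polysomal RNA numbered 2 in the reported test, where 1.85% of all genes were called lower. They numbered 4 with the length trend removed (6.61% of all genes) or with DESeq2 (6.22%). Leaving out 1 library gave 0 to 5, with 0.168% of all genes lower without polysomal library 3 and 6.41% without polysomal library 1. In wild-type polysomal RNA they were 2 to 7, with 3.11% of all genes lower at the 2 and 24.6% at the 7. In total RNA between genotypes the members lower numbered 2. They numbered 1 with a pseudocount of 0.25 (5.64% of all genes lower), 0 with edgeR (4.94%) and 3 with DESeq2 (9.7%). Leaving out 1 library gave 0 to 3 members lower and 0 to 2 higher. The 3 and the 2 came without wild-type polysomal library 2, where 12.0% of all genes were called in each direction. In polysomal RNA between genotypes 1 was lower with the length trend removed (5.39% of all genes lower) and with DESeq2 (6.6%). Leaving out 1 library gave 0 to 1, the 1 without wild-type polysomal library 3 (2.23% of all genes lower). The difference between genotypes had 1 member higher without the rRNA-rich polysomal libraries, where 5.24% of all genes were called higher.

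Signs changed for Igfbp7 in the wild type (-0.29 with the length trend removed, with and without the block), for Igf1r in the knockout (0.15 without rRNA-rich libraries), for Igfbp2 in the difference (0.36 with quantile normalization, 0.21 with the length trend removed, 0.028 without rRNA-rich libraries), for Igf2r in total RNA (0.049 with the length trend removed) and for Igfbp4 in polysomal RNA between genotypes (0.088 without rRNA-rich libraries). Leaving out 1 library moved Igfbp4 between -0.65 and 0.025, Igfbp6 between -0.48 and 0.070 in the wild type, and Igf1r between -0.48 and 0.37 in the knockout, and Igfbp2 between -0.45 and 0.34 in the difference, and Igf2r between -0.74 and 0.11 in total RNA between genotypes, and Igf1r between -0.52 and 0.091, Igfbp6 between -0.19 and 0.43, Igfbp4 between -0.59 and 0.11, Igfbp5 between -0.19 and 0.45 in polysomal RNA between genotypes. The cause was not tested.

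Wild-type libraries with the same number did not deviate together (correlations of 0.21, -0.22 and -0.07), so the numbers are not taken as pairs. With the replicate block 5 members stayed lower, where 1243 of 12380 genes were called lower, against 1705 without the block. All genes called higher then numbered 703, against 1101 without the block. With all libraries or without the rRNA-rich ones, other counts over all genes that moved by over 1.5 times were 2154 higher (DESeq2) in the wild type; 662 higher and 798 lower (length trend removed) and 537 and 751 (DESeq2), against 110 and 223, in the knockout; 13 and 1 (quantile), 84 and 42 (length trend removed), 9 lower (edgeR), 489 and 462 (DESeq2) and 642 and 467 (without rRNA-rich libraries), against 28 and 5, in the difference; 1256 and 1208 (DESeq2), against 587 and 721, in total RNA; and 672 lower (length trend removed), 705 lower (without rRNA-rich libraries) and 973 and 822 (DESeq2), against 601 and 436, in polysomal RNA. Leaving out 1 library gave 2 to 862 higher in the knockout and 83 to 2765 in the wild type. With 2 knockout total RNA libraries, and Igf2 on 1 to 42 reads in the knockout, small differences there were not detectable at this depth.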

Other observations

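A further look at the level of Igfbp transcripts as a whole shows how the fractions compare. The summed Igfbp level per kilobase was 822 ± 238 in knockout polysomal RNA against 1566 ± 441 in knockout total RNA, and 1052 ± 304 in wild-type polysomal RNA against 1526 ± 30.8 in wild-type total RNA (SD, n = 3, 2, 3 and 3). The single libraries ran from 647 to 1093 in knockout polysomal RNA, against 1255 and 1878 in knockout total RNA, and from 758 to 1364 in wild-type polysomal RNA, against 1492 to 1552 in wild-type total RNA, so the fractions did not overlap in either genotype. These sums were not tested.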
